A study of Homo sapiens with 7 samples.

Results

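Replacement histone genes encode histone variants that are made throughout the cell cycle from ordinary polyadenylated mRNAs. The group described here holds the genes of H2A.Z (H2AFZ and H2AFV), H2A.X (H2AFX), macroH2A (H2AFY), H2A.J (H2AFJ), H3.3 (H3F3A and H3F3B) and the linker histones H1.0 (H1F0) and H1X (H1FX). They were taken by gene symbol from a list of variants and make 9 of the 20072 gene symbols in the deposited table. All libraries came from log-phase cells of HCT116, an established human colorectal carcinoma line. The cells were grown without serum in a medium with epidermal growth factor, insulin and transferrin. The 3 parameters were each measured in libraries of their own. Transcription rate (TR) was read with GRO-seq, which sequences RNA extended by engaged polymerases in isolated nuclei, in 2 libraries. mRNA abundance (RA) was read with RNA-seq of mRNA selected from total RNA in 3 libraries. Translation activity (TA) was read from mRNA of polysome fractions of cells briefly exposed to cycloheximide, in 2 libraries. There is 1 cell line and no group set up to test a treatment, so the design compares the parameters with each other within each gene. Cycloheximide is described for the polysome cells only, so its effect cannot be told apart from the assay in comparisons with TA.

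Bulk histones are different. Replication-dependent histone genes lack introns, are transcribed for S phase, and end their mRNAs in a conserved stem-loop in place of a poly(A) tail. The variants replace those histones outside replication: H3.3 and H2A.Z are placed at active promoters and other regulatory chromatin, H2A.X is phosphorylated around DNA breaks, macroH2A marks repressed chromatin, and H1.0 is known to accumulate in resting and differentiating cells. H2AFX is unusual because its gene is known to make both kinds of mRNA end, and this is why its stem-loop is shown first.

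A script searched the canonical transcript of each gene, with 100 bases after its end, for the 16-base histone stem-loop consensus in GENCODE release 44 on GRCh37, the build that hg19 names. It was found in 1 of the 9 replacement histone genes, H2AFX. It was found in 64 of 64 replication-dependent histone genes whose symbol matched 1 annotated gene and in 0.0642% of 18698 other protein-coding genes. The H2AFX element lies on the minus strand at chr11:118965608-118965623, within the 3' UTR and 1024 bases before the annotated transcript end. It starts 52 bases after the last amino acid codon, and those 52 bases include the stop codon. In the replication-dependent genes shown for comparison, chosen by the rule for named genes, the transcript ended 5 to 11 bases after the element. In all, 61 of 64 ended within 11 bases, and the others were HIST2H2BC (109 bases), HIST2H2AA3 (285) and HIST2H2BE (1729), so a long stretch after the element was not particular to H2AFX. In the following 30 bases, 5' to 3', capitals mark the paired stem and lower case marks the loop and the flanks.
H2AFX: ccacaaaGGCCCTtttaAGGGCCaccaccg
HIST1H4C: acccaaaGGCCCTtttcAGGGCCgctcaca
HIST1H3A: aagcaaaGGCTCTtttcAGAGCCaccacct
HIST1H2AB: cagcaaaGGCTCTtttcAGAGCCacctacg
HIST1H1E: acccaaaGGCTCTtttcAGAGCCacccacc
On GRCh37 the printed stretches are chr11:118965601-118965630 (minus) for H2AFX, chr6:26104538-26104567 (plus) for HIST1H4C, chr6:26021153-26021182 (plus) for HIST1H3A, chr6:26033319-26033348 (minus) for HIST1H2AB and chr6:26157316-26157345 (plus) for HIST1H1E. A match to the consensus is a description of the letters, and which mRNA end the cells used was not measured.

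The deposited unit is RPKM, the reads in a gene's exons divided by their length and by the library's total, which allows levels of different genes to be compared per length. Library sizes worked out from the values lay between 3391897 and 5629982 reads for TR, between 20299018 and 22532134 for RA and between 22421062 and 30805391 for TA. RPKM is a share of a library, so it holds no number of molecules per cell. The labelled cell type was checked with 5 epithelial markers (EPCAM, CDH1, KRT8, KRT18 and KRT19), whose summed level was 1899 to 2550 RPKM in RA. The 5 markers of other cell types (PTPRC, PECAM1, COL1A1, DES and GFAP) summed to 21.4 to 72.5 RPKM in TR, where DES was at 48.5 RPKM in replicate 1 and 0.632 RPKM in replicate 2. They summed to 11.7 to 17.1 RPKM in RA and 5.70 to 8.70 RPKM in TA, with COL1A1 and DES above 1 RPKM. Their part in the results was not tested. PTPRC, PECAM1 and GFAP were below 0.1 RPKM in every RA and TA library. The study describes the replicates of each parameter as biological, and the labels do not name the cultures, so the p-values here measure the spread between these libraries.

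Of the 9 genes, 8 reached 1 RPKM on average in every parameter. H3F3A was the exception and could not be compared. The 8 genes spanned a wide range. Mean TR ran from 22.4 RPKM for H2AFV to 434 RPKM for H1F0, mean RA from 3.24 RPKM for H2AFJ to 341 RPKM for H2AFZ, and mean TA from 3.23 RPKM for H2AFJ to 192 RPKM for H1F0. In TR the order from the top was H1F0, H2AFX, H3F3B, H1FX, H2AFZ, H2AFY, H2AFJ and H2AFV. The libraries of H1F0 (410 and 458 RPKM) and H2AFX (410 and 424 RPKM) overlapped. Those of H2AFJ (23.2 and 30.9 RPKM) overlapped both H2AFY (40.9 and 28.6 RPKM) and H2AFV (23.9 and 20.9 RPKM). In RA the order changed to H2AFZ, H1F0, H3F3B, H1FX, H2AFY, H2AFX, H2AFV and H2AFJ, and H2AFZ stood above 99.2% of the 14305 expressed genes. Except for H2AFV and H2AFJ, each gene's range over the 3 RA libraries overlapped that of the next in this order.

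**Figure D1:**
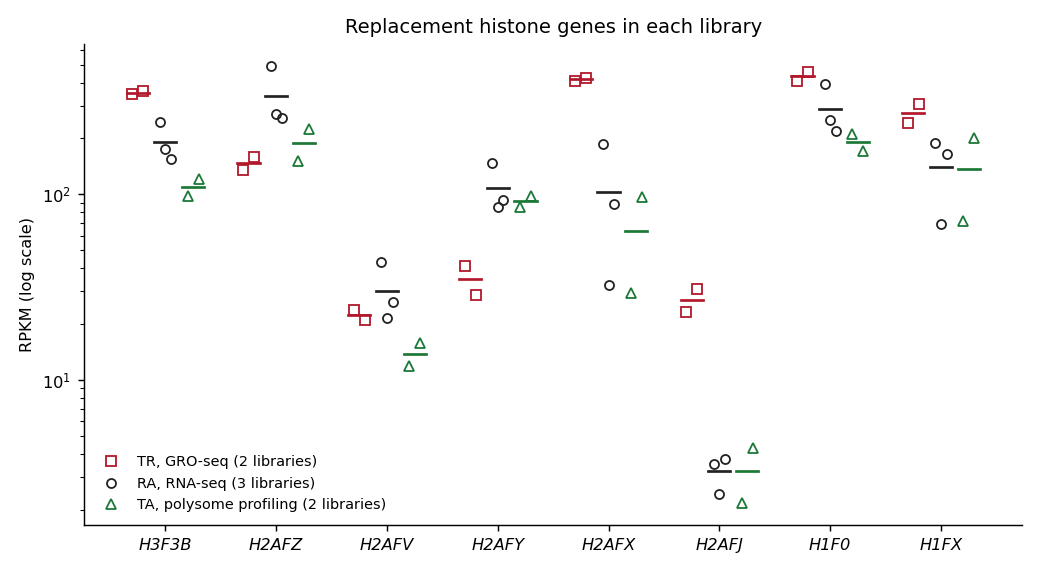
RPKM on a log scale of 8 replacement histone genes in each library, with TR as squares, RA as circles and TA as triangles, and bars at the arithmetic means. H2AFZ and H2AFY stand higher in every RA than in every TR library, and H2AFX, H2AFJ, H3F3B, H1F0 and H1FX stand lower. The differences of H1F0 and H1FX did not pass the test described below. How many of all genes show such a separation was not counted. H3F3A, listed at 0 in 6 of 7 libraries, is not drawn.

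The first comparison asks how far mRNA abundance departs from transcription rate. The difference log2 RA minus log2 TR is the stability index of the study, and it was tested with limma on log2(RPKM + 0.1) over all 14305 expressed genes. H2AFZ and H2AFY were higher in RA than in TR, and H2AFX, H2AFJ and H3F3B were lower. H2AFV, H1F0 and H1FX did not pass the test. Thus 2 of 8 genes were called higher, where 19.2% of all genes tested were. Lower calls came to 3 of 8, where 48.0% of all genes tested were. That background holds genes that reached 1 RPKM in only some parameters, whereas all 8 reached it in each. Among the 10825 genes at that level in each parameter, 2632 were called higher and 3656 lower. The median stability index of the 8 genes was -0.77, against -0.58 over all genes tested. The zero point depends on how libraries are scaled. Over all genes tested, 2743 were called higher and 6870 lower, and 5066 and 4814 once each library was centred on its median. Values after centring each library on its median are given below for each replacement histone gene whose call they change.

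H2AFY encodes macroH2A1, an H2A with a large macro domain. Its TR was 40.9 and 28.6 RPKM, its RA was 148, 85.7 and 92.7 RPKM, and its TA was 85.7 and 98.3 RPKM. Every RA and TA library was above both TR libraries, and RA and TA overlapped. RA was 3.08-fold TR, a stability index of 1.62 (standard error 0.28, limma, Benjamini-Hochberg adjusted p = 0.0011). The call held in 17 of 17 alternatives. With libraries centred the index was 2.29. The gene spans chr5:134670071-134735604, and its canonical transcript has 9 exons.

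H2AFZ encodes the main H2A.Z protein. Its TR was 136 and 158 RPKM, its RA was 493, 271 and 258 RPKM, and its TA was 152 and 224 RPKM. Every RA library was above both TR libraries and above both TA libraries. RA was 2.22-fold TR, an index of 1.15 (standard error 0.34, limma, Benjamini-Hochberg adjusted p = 0.016). Without TR replicate 1 the adjusted p was 0.126, and without TR replicate 2 it was 0.0829. The gene lies at chr4:100869243-100871512 and has 5 exons.

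H2AFV encodes the second H2A.Z protein, which differs from the first by few residues. Its TR was 23.9 and 20.9 RPKM, its RA was 43.0, 21.5 and 26.2 RPKM, and its TA was 11.8 and 15.8 RPKM. TR and RA overlapped, and both TA libraries were below all others. The stability index was 0.37 with a 95% interval from -0.31 to 1.05 (limma, Benjamini-Hochberg adjusted p = 0.30). Without RA replicate 1 it was 0.083, and without RA replicate 2 it was 0.58. With libraries centred on their medians the index was 1.04 with an adjusted p of 0.0102, which is past the threshold.

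H3F3B encodes H3.3, the same protein as H3F3A. Its TR was 347 and 360 RPKM, its RA was 246, 175 and 156 RPKM, and its TA was 97.4 and 121 RPKM. The parameters did not overlap, with TR highest and TA lowest. The stability index was -0.91 (standard error 0.25, limma, Benjamini-Hochberg adjusted p = 0.0133). H3F3B stood 0.33 below the median index of all genes, and with libraries centred its index was -0.23 with an adjusted p of 0.427. The call was also lost without TR replicate 1 (adjusted p = 0.0649), without TR replicate 2 (0.0803) and without RA replicate 3 (0.0523).

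H2AFX had a TR of 410 and 424 RPKM, an RA of 187, 32.7 and 88.6 RPKM, and a TA of 29.4 and 96.9 RPKM. The TR libraries were nearly alike and above all others, while RA differed 5.73-fold between its highest and lowest library and TA 3.3-fold. The stability index was -2.35 (standard error 0.72, limma, Benjamini-Hochberg adjusted p = 0.0194), so RA was 5.11-fold lower than TR. With libraries centred it was -1.68 with an adjusted p of 0.0563, and the adjusted p was 0.137 without TR replicate 1 and 0.150 without TR replicate 2. Without RA replicate 1 the index was -2.95, and without RA replicate 2 it was -1.70. H2AFX lies at chr11:118964584-118966175 and has 1 exon.

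H2AFJ encodes an H2A that differs from the replication-dependent protein mainly at its C-terminal end. Its TR was 23.2 and 30.9 RPKM, its RA was 3.53, 2.42 and 3.75 RPKM, and its TA was 2.17 and 4.28 RPKM. RA and TA overlapped and lay below both TR libraries. The stability index was -3.03 (standard error 0.33, limma, Benjamini-Hochberg adjusted p = 8.9e-05), which is 8.18-fold lower in RA. The call held in 17 of 17 alternatives, and with libraries centred the index was -2.36. The values rest on 288 and 637 reads in TR and on 200 to 283 reads in RA. They were scaled by an exon length of 3667 bases. The gene spans chr12:14927339-14930936, while its canonical transcript has 620 bases in 1 exon. How reads lay along these bases cannot be seen in a value per gene.

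The linker histone genes had high levels in all parameters. H1F0 had a TR of 410 and 458 RPKM, an RA of 396, 253 and 219 RPKM, and a TA of 212 and 171 RPKM. TR did not overlap RA, and both TA libraries were below every RA library. Its stability index of -0.63 (95% interval -1.33 to 0.07) had a limma, Benjamini-Hochberg adjusted p of 0.0974. The sign turned to 0.04 with libraries centred, and without RA replicate 1 the index was -0.88 with an adjusted p of 0.0127. H1FX had a TR of 243 and 307 RPKM, an RA of 188, 69.5 and 165 RPKM, and a TA of 71.5 and 202 RPKM. RA replicate 2 and TA replicate 1 were the low libraries, and RA and TA overlapped. The index of H1FX was -1.08 (95% interval -2.31 to 0.15, limma, Benjamini-Hochberg adjusted p = 0.105). Without RA replicate 2 it was -0.63, and with libraries centred it was -0.41.

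**Figure D2:**
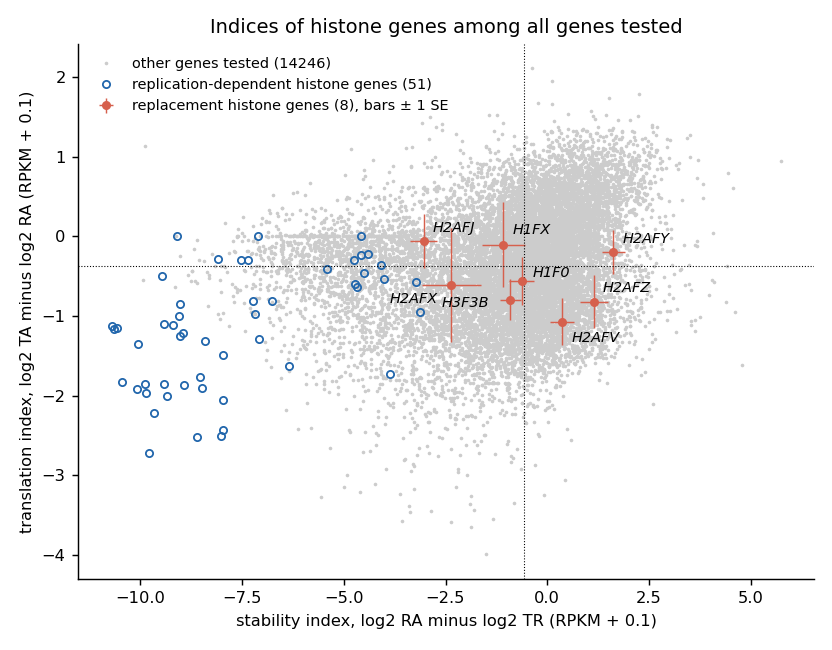
Translation index against stability index, both fitted differences on the log2(RPKM + 0.1) scale, for all genes tested (grey), 51 replication-dependent histone genes (open circles) and 8 replacement histone genes (filled circles, bars of 1 standard error each way), with dotted lines at the medians of all genes. The replacement histone genes lie between -3.03 and 1.62 in the stability index, and the replication-dependent genes, most of which passed the filter on low values only through TR, between -10.70 and -3.13.

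The stability index was also read by exon number, a grouping chosen after the values were seen, and the groups overlapped. The 4 genes with 1 exon (H2AFX, H2AFJ, H1F0 and H1FX) had indices between -3.03 and -0.63, with 2 called lower and 0 called higher. Those with introns (H2AFZ, H2AFV, H2AFY and H3F3B) had indices between -0.91 and 1.62, with 2 called higher and 1 lower. Among 345 other protein-coding genes with 1 exon, 83.5% were called lower and the median index was -2.62. For 13320 other genes with 2 or more exons these values were 45.7% and -0.50. These other genes needed 1 RPKM in only 1 parameter, so a lower RA followed from the filter for those kept through TR alone. The 4 replacement histone genes with 1 exon reached 1 RPKM in each parameter. The shares are therefore not a like background, and a link with exon number was not tested.

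The next comparison asks how mRNA on polysomes relates to mRNA abundance. The translation index, log2 TA minus log2 RA, was below 0 in the fit for all 8 genes, between -1.07 and -0.06, with a median of -0.58 against -0.37 over all genes tested. The median gene was thus also below 0, so the shared sign does not set the group apart. H2AFY, H2AFJ and H1FX stood above 58.7%, 66.2% and 63.9% of all genes tested, and the others above 17.9% to 40.9%. H2AFV and H3F3B were called lower in TA, 2 of 8 genes, where 29.2% of all genes were. No gene was called higher by limma, where 6.66% of all genes were, and at an unadjusted p under 0.05 there were 0 higher and 3 lower. H2AFV had the lowest index, -1.07 (standard error 0.30, limma, Benjamini-Hochberg adjusted p = 0.0256), so TA was 2.10-fold lower. H3F3B had an index of -0.79 (standard error 0.25, adjusted p = 0.0427). Both calls were lost with libraries centred, where the indices were -0.57 and -0.29 with adjusted p of 0.158 and 0.402. Both were also lost without TA replicate 1, where the indices were -0.86 and -0.64 with adjusted p of 0.156 and 0.241. That of H2AFV was lost too without TR replicate 1 (0.0760), TR replicate 2 (0.0761) and RA replicate 3 (0.0556). Centring turned the split of all genes from 953 higher and 4173 lower to 2713 and 1404. The H3F3B call was lost whichever library was left out, with adjusted p from 0.0505 to 0.241.

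H2AFZ had a translation index of -0.82 (95% interval -1.59 to -0.04, limma, Benjamini-Hochberg adjusted p = 0.0919), with all 6 pairs of libraries below 0. It was -0.52 without RA replicate 1, -0.54 without TA replicate 1 and -0.32 with libraries centred. H1F0 also had all 6 pairs below 0, with an index of -0.56 (95% interval -1.25 to 0.14, adjusted p = 0.185) that was -0.31 without RA replicate 1 and -0.05 with libraries centred. For H2AFX, H2AFY, H2AFJ and H1FX the TA and RA libraries overlapped. H2AFY had the narrowest interval of these 4, from -0.84 to 0.44, around an index of -0.20, and H2AFX the widest, from -2.27 to 1.05, around -0.61. The H2AFX index was 0.25 without TA replicate 1 and -0.012 without RA replicate 1. The signs of H2AFY, H2AFJ and H1FX turned above 0 with libraries centred.

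From transcription to polysomes, H2AFY was called higher in TA than in TR, 1 of 8 genes, where 17.0% of all genes were. H2AFX, H2AFJ, H3F3B and H1F0 were called lower, 4 of 8 genes, where 57.5% were. Among the 10825 genes that, like these 8, reached 1 RPKM in each parameter, 2336 were called higher and 4935 lower. H2AFJ was lowest, with a difference of -3.09 (standard error 0.37, limma, Benjamini-Hochberg adjusted p = 1.0e-04). H2AFX followed at -2.96 (standard error 0.79, adjusted p = 0.0089), H3F3B at -1.70 (standard error 0.28, adjusted p = 0.00067) and H1F0 at -1.19 (standard error 0.33, adjusted p = 0.0114). The median gene stood at -1.08 in this comparison, so H1F0 was 0.11 below it. With libraries centred, H2AFJ alone of the 4 was called lower, and H2AFZ joined H2AFY as higher, with a difference of 1.5. The split of all genes moved from 2439 higher and 8231 lower to 5436 and 5044. Without TR replicate 1 and without TR replicate 2 there were 2 genes called lower, since H2AFX (adjusted p = 0.0819 and 0.0875) and H1F0 (0.0513 and 0.0745) were lost. The call of H2AFX was also lost without TA replicate 1 (0.0661) and that of H1F0 without TA replicate 2 (0.0736). This comparison shares its libraries with the other 2 and is not independent of them.

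The RA and TA libraries of H2AFX and H1FX differed between replicates more than those of the other genes. Both mRNAs are rich in G and C, at 66.8% for H2AFX and 68.6% for H1FX, and with H2AFJ at 63.1% they lie in the highest of 10 equal groups by GC content, formed from 10735 genes that reached 1 RPKM in every parameter. The log2 ratio of RA replicate 2 to replicate 1 was -2.52 for H2AFX, and the values for H1FX and H2AFJ were -1.44 and -0.55. The median of that group of genes was -0.39, while the other 9 groups had medians between -0.08 and 0.07. TA replicate 2 was above replicate 1 by 1.72 for H2AFX, 1.5 for H1FX and 0.98 for H2AFJ, where the median of that group was 0.40. In TR these genes differed by 0.05, 0.33 and 0.41 between replicates. When the GC trend between replicates of each assay was removed, an alternative chosen after seeing the data, H1FX was called lower in RA than in TR with an index of -1.09 (limma, Benjamini-Hochberg adjusted p = 0.0222). The part of GC content in the spread of single genes was not tested beyond this.

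Genes of lower GC content differed between the RA libraries as well. Over all GC levels, RA replicate 2 was below RA replicate 1 for 8 of 8 genes, where this held for 51.4% of 10825 genes, and RA replicate 1 was the highest RA library for 7 of 8, where this held for 41.6%. RA replicate 2 of H2AFV was 0.500-fold replicate 1. The log2 ratio of these libraries was -0.86 for H2AFZ, -0.79 for H2AFY, -0.65 for H1F0 and -0.50 for H3F3B, against a median of -0.02 over all genes. Without RA replicate 1, H2AFZ and H2AFY were still called higher in RA than in TR, with adjusted p of 0.0194 and 0.0011 in limma. The cause of the difference between these libraries was not tested.

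**Figure D3:**
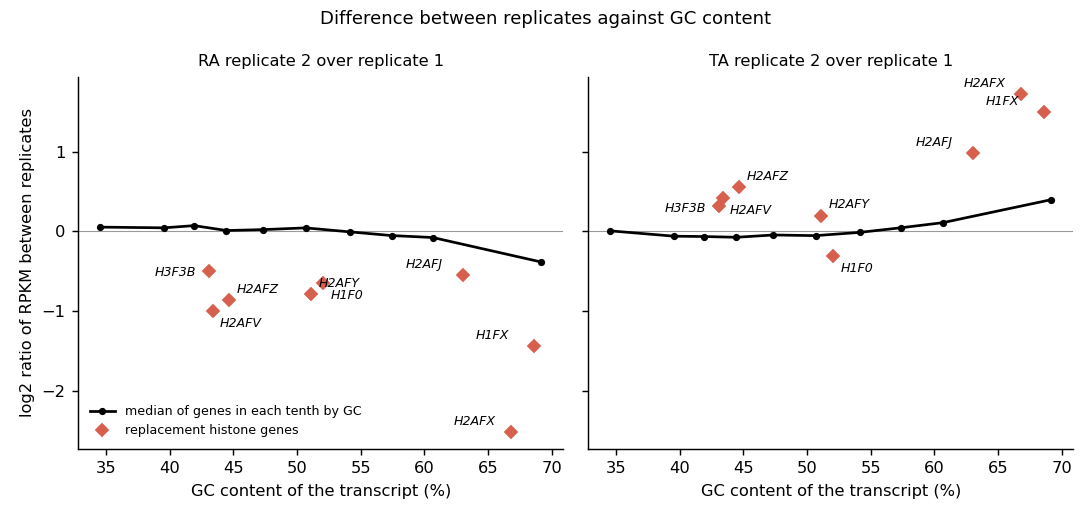
Log2 ratio of RPKM between replicates 2 and 1 of RA (left) and of TA (right) against the GC content of the canonical transcript, with the median of each of 10 equal groups of genes by GC (black line) and 8 replacement histone genes (diamonds). H2AFX and H1FX are at -2.52 and -1.44 in RA and at 1.72 and 1.5 in TA, and the highest group of genes moves the same way with medians of -0.39 and 0.40.

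H3F3A is listed at 0 in both TR and all 3 RA libraries and in TA replicate 2, and at 0.0306 RPKM, 1 read, in TA replicate 1. A count of 0 allows at most 3 reads, which is 0.833 RPKM in the smaller TR library and 0.139 RPKM in the smallest RA library. H3F3A and H3F3B encode the same protein from unlike mRNAs, and the H3F3A mRNA has many processed copies in the genome. Of the 1021 windows of 50 bases in the canonical H3F3A transcript (gene at chr1:226249552-226259720), 93.9% had an exact copy at another place in GRCh37. With up to 2 mismatches 94.7% had a copy, spread over 17 places. Of these places 14 hold an annotated pseudogene. For H2AFX, H2AFY, H2AFJ, H1F0 and H1FX the share with an exact copy was 0%. It was 11.4% for H2AFZ, 12.1% for H3F3B and 8.87% for H2AFV. The sources used here do not state how reads with several matches were counted, and the part of the copies in the values at 0 was not tested. The level of H3F3A therefore cannot be read from this table.

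**Figure D4:**
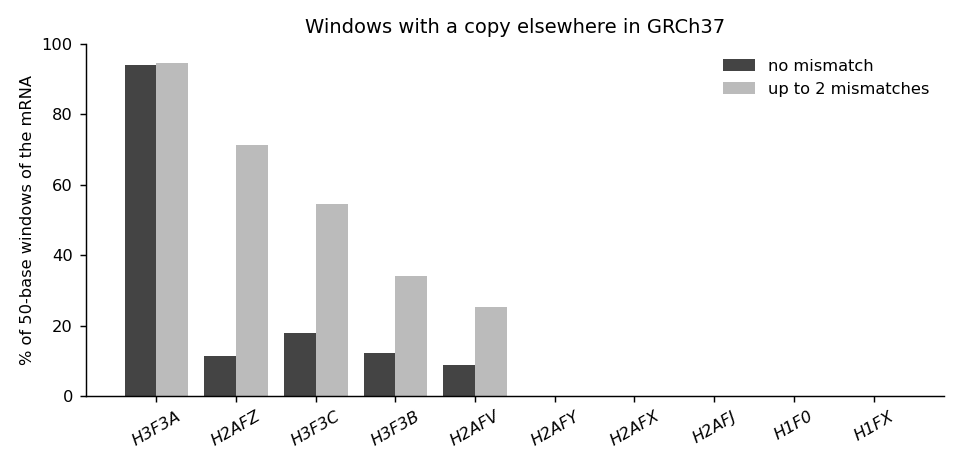
Percentage of 50-base windows of each canonical mRNA that have a copy elsewhere in GRCh37, with no mismatch (dark bars) or up to 2 mismatches (light bars), for 9 replacement histone genes and H3F3C. H3F3A stands at 93.9% without mismatch, and H2AFX, H2AFY, H2AFJ, H1F0 and H1FX at 0%.

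With up to 2 mismatches, 71.4% of the windows of H2AFZ had a copy, at 4 places of which 3 hold annotated H2A.Z pseudogenes. For H3F3B the share was 34.1%, all at the H3F3C locus, an intronless relative that encodes an H3.3-like histone. H3F3C was listed at 9.20 and 3.86 RPKM in TR, at 76.1, 44 and 41.5 RPKM in RA and at 27.9 and 32.9 RPKM in TA. Its RA was therefore above every TR library, with an index of 3.09 (standard error 0.39, limma, Benjamini-Hochberg adjusted p = 0.00019). The ratio of H3F3B to H3F3C was 37.7 and 93.2 in TR. It lay between 3.23 and 3.97 in the 3 RA libraries and at 3.49 and 3.69 in TA. H3F3C values rest on 33 and 23 reads in TR, against 901 to 1633 in RA, so its TR ratios and index are uncertain. In turn 54.5% of the windows of H3F3C had a copy within 2 mismatches, all at the H3F3B locus. The values of both genes are uncertain to the extent that reads were split between them.

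The H2A.Z genes were compared with each other as a pair. The ratio of H2AFZ to H2AFV was 5.67 and 7.58 in TR, 11.5, 12.6 and 9.84 in RA, and 12.9 and 14.1 in TA. It rose from TR to RA to TA without overlap between the libraries of different parameters, by 0.78 on the log2 scale from TR to RA and by 0.26 from RA to TA. In an exact two-sided permutation test p was 0.20 for both steps, the smallest that 2 against 3 libraries allow, and 0.60 after Benjamini-Hochberg adjustment over 6 tests. The ratio of H1FX to H1F0 was 0.593 and 0.670 in TR, 0.476, 0.275 and 0.752 in RA, and 0.337 and 1.18 in TA. Its parameters overlapped, and the exact p was 0.60 from TR to RA, 0.60 from RA to TA and 1.0 from TR to TA. A ratio to H3F3A could not be formed.

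**Figure D5:**
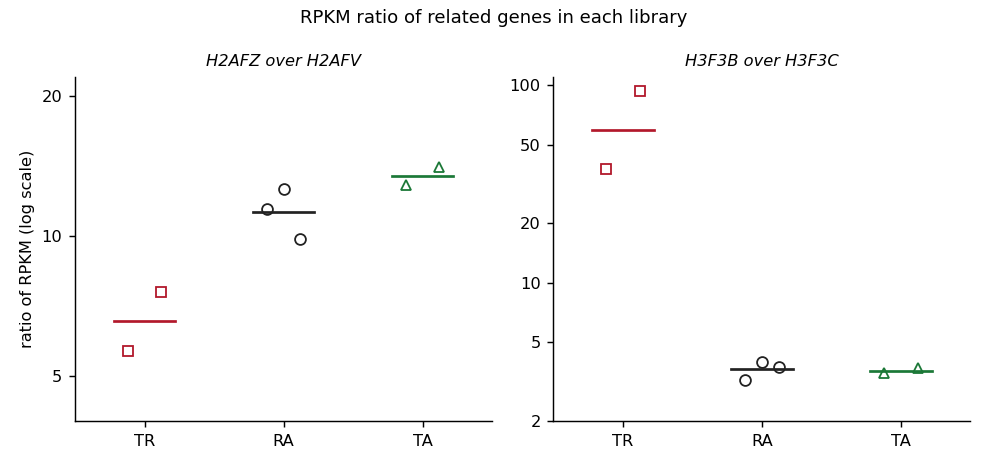
Ratio of RPKM on a log scale between H2AFZ and H2AFV (left) and between H3F3B and H3F3C (right) in each library of TR, RA and TA, with bars at the geometric means. The H2AFZ ratio runs from 5.67 in TR to 14.1 in TA. The H3F3B ratio falls from 37.7 and 93.2 in TR, where H3F3C had 33 and 23 reads, to between 3.23 and 3.97 in RA and TA.

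For contrast, 72 replication-dependent histone symbols were in the table and 51 were expressed, of which 6 had at least 1 RPKM in each parameter. Of the 51, 20 had at least 1 RPKM in RA. The others passed the filter on low values through TR, so a lower RA followed from the filter for them. The same holds for TA where it was below 1 RPKM. In limma 51 of 51 were called lower in RA than in TR, with fitted differences between -10.70 and -3.13 that depend on the pseudocount. Over all 72 symbols the median TR was 97.7 RPKM, the median RA 0.297 RPKM and the median TA 0 RPKM. For HIST1H3A, TR was 365 ± 59.0 RPKM (SD, n = 2) and RA 0.315 ± 0.546 RPKM (SD, n = 3). For HIST1H4C, TR was 590 ± 83.3 RPKM (SD, n = 2) and RA 0.698 ± 0.608 RPKM (SD, n = 3). H2AFX, with a TR in the same range, had an RA of 103 ± 78.1 RPKM (SD, n = 3). mRNA was selected before the RNA-seq and polysome libraries and not before GRO-seq, and the assays and the selection cannot be told apart here.

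Genes that act on these histones were read from lists, beside the shares of all genes given above. Counts with libraries centred on their medians follow each main count, since centring ended many calls of lower genes. Of 7 genes for H3.3 deposition, 2 were called higher and 3 lower in RA than in TR (2 and 0 centred), and 0 were called higher and 5 lower in TA than in RA (0 and 2 centred). HIRA, a subunit of an H3.3 chaperone complex, had a stability index of 0.53 (standard error 0.19, limma, Benjamini-Hochberg adjusted p = 0.0327) and a translation index of -1.33 (standard error 0.19, adjusted p = 0.0035). DAXX, another H3.3 chaperone, had a stability index of 0.62 (adjusted p = 0.0097). UBN2, a partner of HIRA, and ASF1A, a chaperone that hands over H3 and H4, had stability indices of -0.92 and -0.91 (adjusted p = 0.0115 and 0.0039). With libraries centred, UBN2 was at -0.25 and ASF1A at -0.24, with adjusted p of 0.415 and 0.331.

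Of 11 genes for H2A.Z exchange, 5 were called higher and 2 lower in RA than in TR (6 and 0 centred), and 3 higher and 1 lower in TA than in RA (3 and 0 centred). RUVBL1 and RUVBL2, ATPases shared by the H2A.Z exchange complexes, had stability indices of 1.19 and 1.40 and translation indices of 1.30 and 0.92. The limma, Benjamini-Hochberg adjusted p of these were 0.0016 and 0.0051 for RUVBL1 and 0.00041 and 0.0117 for RUVBL2. DMAP1, a subunit of such a complex, and SRCAP, the ATPase that places H2A.Z, had stability indices of -1.52 and -0.80 (adjusted p = 0.0050 and 0.0020). With libraries centred, DMAP1 was at -0.84 and SRCAP at -0.13, with adjusted p of 0.0655 and 0.501. INO80 had a translation index of -1.06 (adjusted p = 0.0104), and -0.56 centred (adjusted p = 0.112).

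Of 13 chaperone genes that serve replication, 6 were called higher and 1 lower in RA than in TR (6 and 0 centred), and 0 higher and 1 lower in TA than in RA (3 and 0 centred). SSRP1, a subunit of FACT, was highest in the stability index at 1.94 (standard error 0.18, limma, Benjamini-Hochberg adjusted p = 3.7e-05). TONSL, which binds new histones at forks, was lowest at -1.91 (standard error 0.54, adjusted p = 0.0142), and at -1.24 centred (adjusted p = 0.0604). Of 13 genes that process replication-dependent histone mRNA, 4 were called higher and 3 lower in RA than in TR (7 and 2 centred), and 2 higher and 4 lower in TA than in RA (4 and 2 centred). SLBP, which binds the stem-loop, had a stability index of 0.83 (standard error 0.29, limma, Benjamini-Hochberg adjusted p = 0.0328). CASP8AP2, needed for expression of those histones, was lowest at -1.92 (standard error 0.23, adjusted p = 0.00013), and at -1.25 centred (adjusted p = 0.0012). LSM10, a subunit of the particle that directs cleavage of those mRNAs, had a translation index of -1.37 (standard error 0.28, adjusted p = 0.0090). Of 11 other histone variant genes 4 were expressed. H3F3C was called higher in RA than in TR, also with libraries centred. H1FNT, a testis linker histone, was called lower in RA, but it passed the filter on low values only through TR. It stood at 1.13 and 1.37 RPKM in TR, at most 0.0379 RPKM in RA and 0 RPKM in TA, so its lower RA followed from the filter.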

How the data were processed

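TR, RA and TA of HCT116 cells were taken from the RPKM values that the authors deposited for each gene symbol and library. According to the study's methods, the authors aligned the reads with TopHat to hg19, left its parameters at their defaults, and used HTSeq-count for exonic reads. The submitters' processing notes also name CASAVA. The treatment of reads with several matches, the strand setting and the annotation are not given in the sources used here. The members and gene lists were chosen with earlier results of these data known.

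Genes with a mean of at least 1 RPKM in 1 or more parameters were tested with limma 3.58.1 (R 4.3.3, trended eBayes). A single fit on log2(RPKM + 0.1) held the 7 libraries, and p-values of the 14305 genes were adjusted by the Benjamini-Hochberg method with calls under 0.05. The procedure was tested on simulated data and recovered 100% of 200 genes changed by 2 on the log2 scale between TR and RA, with 17 false calls among 14305 genes. Recovery at a spread as wide as that of H2AFX or H1FX, with log2 SDs in RA of 1.26 and 0.78, was not tested. A fold change on the log2(RPKM + 0.1) scale understates the change of low genes. Library sizes, exon lengths and reads were worked out from the RPKM values, and 100% of values above 0 came within 0.001 of a whole read. The 95% intervals come from limma and rest on the spread between libraries, while the floors of 3 reads cover counting error only, since reads carry no molecular identifiers.

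Gene structure, GC content and the stem-loop came from GENCODE release 44 lifted to GRCh37, where 18580 symbols matched directly and 893 through an older symbol that no other symbol shared. Copies of 50-base windows were found with blastn 2.17.0 at 90% identity or more. Paralog ratios were compared with exact permutation tests in scipy 1.17.1. Named genes were the 9 members, for each list the 2 highest and 2 lowest past the threshold in each index with 1 sign in every pair of libraries, and the nearest gene to each member. Not all genes that the rule for lists names are printed. Antisense genes overlap 22.8% of the H1FX, 9.13% of the H2AFY and 7.04% of the H2AFZ transcript, and without strand their reads cannot be told apart.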

Additional observations from a re-analysis of the deposited data

How the results depend on the processing

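Of 408 values of single genes under 17 alternatives each, 336 kept their direction and their side of the threshold, 40 lost a call, 13 gained one and 19 changed sign. The calls of H2AFY (higher in RA and TA than in TR) and H2AFJ (lower in both) were kept in all 17. Counts of replacement histone genes moved as follows. With libraries centred on their medians, 1 gene was lower in RA than TR, 0 were lower in TA than RA, 2 were higher in TA than TR and 1 was lower. With no filter on low values 1 gene was lower in TA than RA, and with only the libraries of the parameters compared 0 were. Over the settings that leave out libraries, the counts lay between 1 and 2 for higher and between 1 and 4 for lower in RA than TR, between 0 and 1 for lower in TA than RA, and between 2 and 6 for lower in TA than TR. RA replicate 2 and TA replicate 1 left out together, an alternative chosen after seeing the data, was among them and gave 0 genes lower in TA than RA.

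The study describes the cells as divided into parts, 1 for each assay, so libraries of different parameters may share a culture. Neither the study nor the labels say which libraries do. The replicate numbers were therefore not taken as a pairing, and the main fit treated all libraries as independent. Differences between replicates 1 and 2 correlated across 14305 genes with an r of 0.08 between TR and RA, -0.50 between RA and TA and 0.01 between TR and TA. With the numbers as a replicate block, 2 genes were higher and 1 lower in RA than TR, 0 lower in TA than RA, and 1 higher and 4 lower in TA than TR, while the calls over all genes in TA against RA moved from 953 higher and 4173 lower to 109 and 1387. With crossed numbers these counts were 680 and 3542, and 2 genes of the group were higher and 4 lower in RA than TR, 2 lower in TA than RA, and 1 higher and 6 lower in TA than TR, with H1FX gained among those lower in RA than TR. In that replicate block the translation index was 0.059 for H2AFJ and 0.072 for H1FX, and the crossed replicate block, chosen after seeing the data, gave the same values.

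Signs turned only for values that had not passed the test. With libraries centred, these were the stability index of H1F0 (0.042), the translation indices of H2AFY (0.30), H2AFJ (0.44) and H1FX (0.40), and the difference of TA and TR of H2AFV (0.47). With libraries left out, the translation index ran from -1.47 to 0.25 for H2AFX, from -0.35 to 0.043 for H2AFY, from -0.53 to 0.42 for H2AFJ and from -0.85 to 0.64 for H1FX. The log2 ratio of H1FX to H1F0 ran from -0.45 to 1.36 between RA and TA and from -0.90 to 0.91 between TR and TA. With 1 library of a parameter left, that library was assumed to vary like the others. The cause of these shifts was not tested. The fewest reads behind a value of the 8 genes were 200, for H2AFJ in RA replicate 2.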

Other observations

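The genes whose levels over the 7 libraries lay nearest to each replacement histone gene, by Euclidean distance on log2(RPKM + 0.1) among 14304 other genes, were SEPT2 for H2AFY (distance 0.43), CPNE2 for H2AFV (0.43), RTBDN for H2AFJ (0.53), PHLDA1 for H3F3B (0.71), ADIRF for H2AFZ (0.74), JUND for H1FX (1.05), CLDN4 for H1F0 (1.45) and ID1 for H2AFX (1.56). The mean TR, RA and TA were 623, 114 and 74.2 RPKM for ID1, 263, 132 and 87.2 RPKM for JUND, and 358, 175 and 121 RPKM for PHLDA1. A distance over 7 libraries of 3 assays mostly reflects the mean levels.

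RefSeq promoters on GRCh38.p14, from 250 bases before to 50 after each start, were listed for 8 of the 9 genes, with H1F0 missing. CCAAT, searched on both strands, was present in at least 1 promoter of H2AFZ, H2AFV, H2AFX, H2AFY, H2AFJ, H3F3A and H3F3B, and in 34.6% of 35116 promoters. H2AFY had it in 1 of 2 promoters and H3F3A in 3 of 4. A gene with several promoters has more places for a match, so this list of genes and the share of single promoters are unlike units. TATAAA, searched on both strands, was present for H2AFZ, H2AFX, H3F3B and H1FX and in 11.5% of all promoters. These matches describe the letters only.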
